A study of Mus musculus with 4 samples.

Results

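Muscle wasting runs largely through the ubiquitin-proteasome system, and 10 genes for ubiquitin ligases tied to it in skeletal muscle were examined. They were chosen by name as the rows of the deposited count table whose symbol is Fbxo32, Trim63, Trim54, Trim55, Fbxo30, Fbxo31, Fbxo21, Fbxo40, Nedd4 or Cblb. All 10 were found among 23333 rows, 1 row each, and all 10 were among the 13285 genes abundant enough to test, so no member was lost to the filter on low counts. The cells were C2C12 myotubes, the fused and differentiated stage of a female mouse myoblast line, held without steroids and then given vehicle or the synthetic glucocorticoid dexamethasone at 1 µM for 2 h. Chromatin-bound nuclear RNA was sequenced from 2 libraries per treatment, 4 in all, and the labels name no genetic change. Nothing in the labels says whether the 2 libraries of a group came from separate cultures, so the tests measure the spread between these libraries, which may be technical.

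A ubiquitin ligase, or E3, brings a substrate together with a ubiquitin-loaded E2 enzyme, and the tagged protein is then degraded by the proteasome or rerouted. Atrogin-1 (Fbxo32) and MuRF1 (Trim63) were identified as ligases whose transcripts increase in many kinds of muscle atrophy, and glucocorticoids are a standard way to induce both. F-box proteins such as atrogin-1 work as the substrate receptors of SCF complexes, built on a cullin and a RING protein. The MuRF proteins carry their own RING domain and bind the sarcomere, Cbl-b is a RING ligase of signalling proteins, and Nedd4 is a ligase of the HECT class, which passes ubiquitin through its own catalytic cysteine.

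The libraries held 19631435 and 35116830 counts for vehicle replicates 1 and 2, and 32463331 and 88596296 for dexamethasone replicates 1 and 2. Reads of the 10 genes made up 0.191% and 0.201% of the vehicle libraries and 0.244% and 0.238% of the dexamethasone libraries. Levels below are library-size-normalised counts (CPM) scaled by TMM, a correction for library composition, and are called scaled CPM. The glucocorticoid-responsive genes Fkbp5 and Pdk4 passed the test over all genes, with log2 fold changes of 5.32 and 3.11 (edgeR adjusted p = 0.0429 for each). Per1 and Tsc22d3 did not pass, at 2.53 and 2.72 (edgeR adjusted p = 0.117 and 0.213), though each treated library exceeded each vehicle one. Genes with differences of that size could thus fail this test. Marker levels in this paragraph are the exception, as they are CPM without the TMM scaling, while the log2 fold changes beside them include it. All 8 myotube markers examined were detected, but their summed level followed the replicate number. It was 117091 and 109751 CPM in the replicate 1 libraries against 46601 and 44357 CPM in the replicate 2 libraries. Most of that sum came from Ttn, the titin gene. Of the 8 markers of other cell types, Thy1 was listed at 0 in every library and Adipoq, Plin1 and Ptprc stayed at or under 0.199 CPM. The sum of those 8 was 10.6 and 9.71 CPM in the vehicle libraries and 13.1 and 17.2 CPM in the dexamethasone libraries, mainly from Pdgfra (log2 fold change 1.04, SE 0.278, edgeR adjusted p = 0.503). Cd68 and Pecam1, the others abundant enough to test, were at -0.05 (SE 0.269) and -0.18 (SE 0.391). The 5 markers of myoblasts and cycling cells summed to 50.4 and 61.5 CPM with vehicle and 35.4 and 46.7 CPM with dexamethasone, mainly from Pax7 (log2 fold change -0.80, SE 0.201, edgeR adjusted p = 0.456). The other 4 had the opposite sign, from 0.07 (Mki67, SE 0.219) to 0.30 (Myf5, SE 0.471), with overlapping groups. Both marker sums thus moved with the treatment mainly through a single gene, and their part in the results below was not tested. In bulk RNA, fewer cells of a type and less RNA per cell cannot be told apart.

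After dexamethasone, chromatin RNA of Cblb, Fbxo32, Trim63 and Trim54 was more abundant in both treated libraries than in either vehicle library, by 2.27-fold, 1.78-fold, 1.70-fold and 1.28-fold in the fit. Nedd4 was the reverse, with both treated libraries below both vehicle libraries (0.849-fold). In the other 5 genes (Trim55, Fbxo30, Fbxo31, Fbxo21 and Fbxo40) the treatment groups overlapped. Thus 4 of 10 members lay wholly above and 1 of 10 wholly below, against 15.0% and 12.9% of all tested genes. The members were chosen with earlier results of these data known, so such counts are a description and not a test. No member passed an adjusted p of 0.05 over the 13285 genes in edgeR's quasi-likelihood test fitted on treatment alone. There, 0.0376% of genes were called higher and 0% lower. Before adjustment, at a p under 0.05, the same test gave 4 members higher and 0 lower, against 4.09% and 1.69% of genes. The 4 became 3 when scaled by library size only (439 of 13285 genes higher), by upper quartile (510 of 13285) or with thinned libraries (521 of 12710). Trim54 was the member lost each time. With any 1 library left out, fewer than 4 stayed under 0.05, though 1 group then holds 1 library. The log2 fold changes there ran from 0.60 to 1.04 for Fbxo32 and 0.45 to 1.03 for Trim63. They ran from 0.31 to 0.41 for Trim54 and 0.98 to 1.37 for Cblb. DESeq2's Wald test and edgeR's likelihood ratio test each called 1 member higher, Cblb, against 1.78% and 1.83% of all tested genes. Before adjustment, at a p under 0.05, each gave 3 members higher, again without Trim54, against 502 and 534 of 13285 genes. With limma-voom 0 members were called, against 0% of genes, and 4 were higher before adjustment, against 4.06% of genes. The median log2 fold change of the 10 genes was 0.18, beside -0.0016 for all tested genes.

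**Figure D1:**
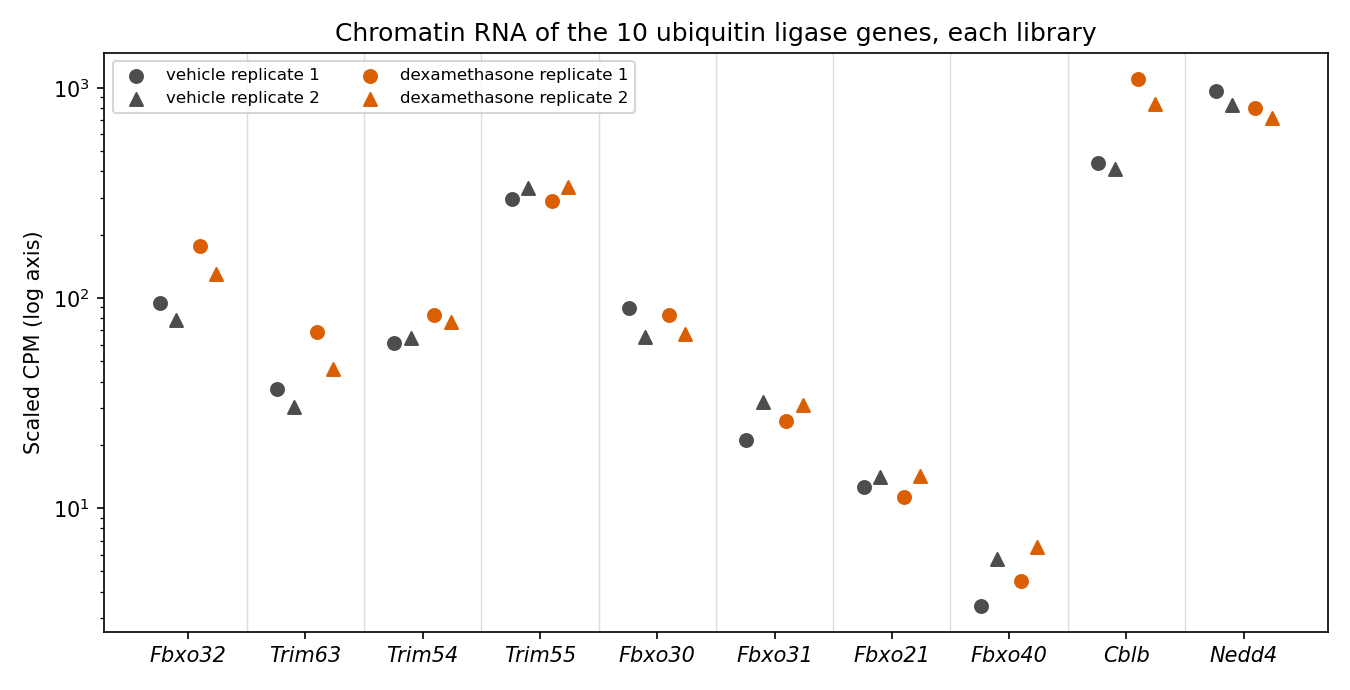
Scaled CPM (log axis) of each of the 10 genes in each library: grey for vehicle, orange for dexamethasone, circles for replicate 1 and triangles for replicate 2. Orange points sit above grey points for Fbxo32, Trim63, Trim54 and Cblb and below them for Nedd4; for Trim55, Fbxo30, Fbxo31, Fbxo21 and Fbxo40 circles and triangles separate instead of colours.

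The MuRF family is described first, since its 3 members are close relatives with different values. Trim63 (ENSMUSG00000028834) encodes MuRF1, which ubiquitinates thick filament proteins. Its counts were 689 and 1154 with vehicle and 2057 and 4282 with dexamethasone. Scaled, this came to 37.0 and 30.4 CPM against 68.6 and 45.9 CPM, or 33.7 ± 4.63 against 57.2 ± 16.1 (SD, n = 2 each). The groups did not overlap, but dexamethasone replicate 1 stood well above dexamethasone replicate 2. The log2 fold change was 0.76 (SE 0.249), with a 95% interval of 0.11 to 1.42 and an edgeR adjusted p = 0.714. It was 0.45 without dexamethasone replicate 1 and 1.03 without dexamethasone replicate 2, so its size rested on which treated library was kept.

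Trim54 (ENSMUSG00000062077) encodes MuRF3, which binds microtubules and sarcomeres. Its levels were 60.9 and 64.3 scaled CPM with vehicle and 83.0 and 77.1 with dexamethasone, from 1136 to 7196 counts per library. The 2 libraries of each group lay close together, and the treated pair was the higher one. The log2 fold change was smaller than that of Trim63, at 0.35 (SE 0.124, 95% interval 0.03 to 0.68, edgeR adjusted p = 0.788). It ran from 0.31 to 0.41 when single libraries were left out. The unadjusted edgeR quasi-likelihood p of 0.0398 rose to 0.123 with library size only, 0.0503 with upper quartile scaling and 0.0521 with thinned libraries. In DESeq2's Wald test it was 0.0920 and in edgeR's likelihood ratio test 0.0871. It stayed under 0.05 in the other fits on all 4 libraries. Trim55 (ENSMUSG00000060913) encodes MuRF2, a partner of titin and of microtubules. It had 297 and 332 scaled CPM with vehicle and 291 and 337 with dexamethasone, so each treated library matched the vehicle library of its own number. Its log2 fold change was -0.0030 (SE 0.147), and the 95% interval of -0.39 to 0.39 bounds what could have gone unseen.

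Because the 3 MuRF genes were counted in the same libraries, their make-up does not depend on the scaling. Trim63 took 9.37% of the family's reads in vehicle replicate 1 (95% Wilson interval 8.73% to 10.1%) and 7.12% in vehicle replicate 2 (6.74% to 7.53%). In the dexamethasone libraries it took 15.5% (14.9% to 16.1%) and 9.97% (9.69% to 10.3%). These intervals cover counting error only, and those of vehicle replicate 1 and dexamethasone replicate 2 overlap although both treated shares were the higher ones. Trim54 took 15.4% and 15.1% with vehicle and 18.8% and 16.8% with dexamethasone. Trim55 held the rest, from 65.7% to 77.8%, lowest in dexamethasone replicate 1. On the log2 scale the ratio of Trim63 to Trim55 reads was -3.00 and -3.45 with vehicle and -2.08 and -2.88 with dexamethasone, a difference of 0.75. The treated libraries were the higher ones, with an exact two-sided permutation p of 0.333, the smallest that 2 against 2 libraries can give. The ratio of Trim63 to Trim54 differed by 0.39 with overlapping groups (exact permutation p of 0.667), and that of Trim54 to Trim55 by 0.36 without overlap (exact permutation p of 0.333). These 3 ratios were among 5 computed, and adjustment over the 5 cannot bring any of them under 0.05.

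**Figure D2:**
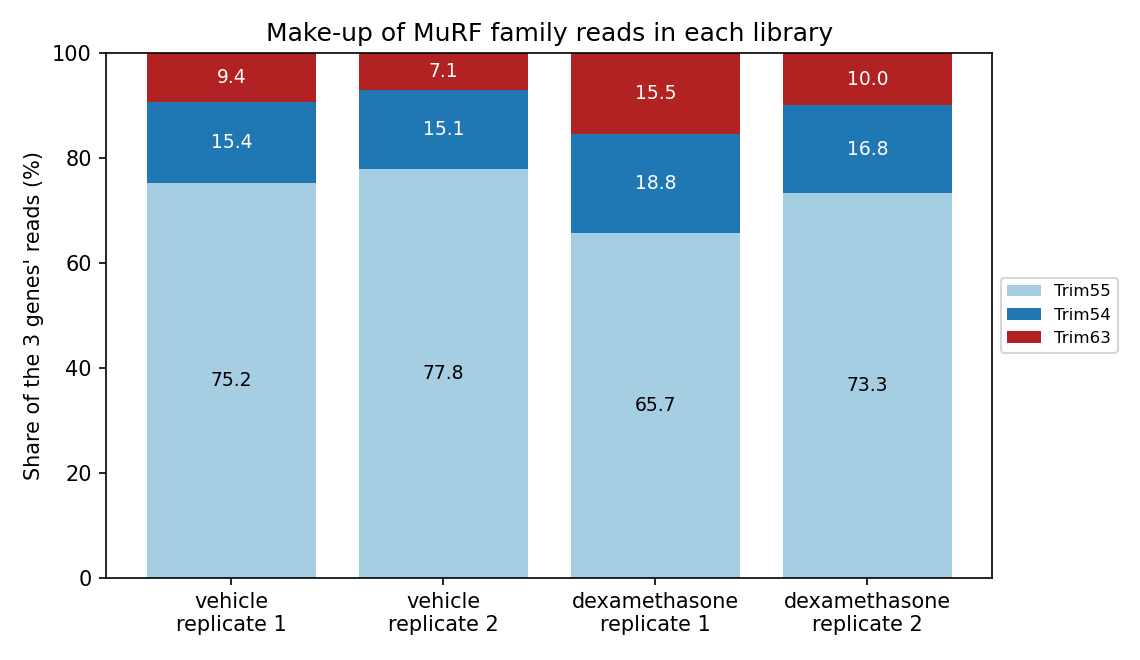
Share (%) of the reads of Trim63, Trim54 and Trim55 together that each gene took in each library. Trim55 holds 65.7% to 77.8% in every library, and the Trim63 part is 15.5% and 9.97% with dexamethasone against 9.37% and 7.12% with vehicle.

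The Trim63 promoter is a textbook case of glucocorticoid control, in which receptor and FoxO factors act together, so promoter windows were examined for letters that these factors are known to bind. RefSeq windows (GRCm38.p6), here the 250 bases before a gene's start, were matched by symbol for 8 of the 10 genes, all but Fbxo32 and Trim55, and gave 10 windows. The motifs were the half-site of the glucocorticoid response element (AGAACA), the FoxO site (GTAAACA) and the muscle E-box (CAGCTG), searched on both strands. The count table names the build mm9, so these coordinates belong to the RefSeq table alone. The windows of Trim63 (chr4:134314870-134315119, plus strand), of Trim54 (chr5:31116362-31116611, plus strand) and of Cblb (chr16:52031299-52031548, plus strand) are shown because these are the members above vehicle in both treated libraries that have a window. Capitals mark the half-site and the FoxO site.

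Trim63: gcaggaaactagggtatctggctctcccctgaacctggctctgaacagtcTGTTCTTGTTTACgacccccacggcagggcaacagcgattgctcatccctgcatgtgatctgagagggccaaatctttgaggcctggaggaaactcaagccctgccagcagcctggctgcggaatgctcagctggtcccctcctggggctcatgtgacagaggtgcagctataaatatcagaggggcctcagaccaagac
Trim54: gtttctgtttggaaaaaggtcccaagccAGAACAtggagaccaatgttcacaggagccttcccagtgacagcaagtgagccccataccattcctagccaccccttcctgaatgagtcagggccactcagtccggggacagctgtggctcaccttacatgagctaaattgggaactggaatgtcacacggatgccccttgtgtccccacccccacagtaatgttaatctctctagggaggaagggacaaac
Cblb: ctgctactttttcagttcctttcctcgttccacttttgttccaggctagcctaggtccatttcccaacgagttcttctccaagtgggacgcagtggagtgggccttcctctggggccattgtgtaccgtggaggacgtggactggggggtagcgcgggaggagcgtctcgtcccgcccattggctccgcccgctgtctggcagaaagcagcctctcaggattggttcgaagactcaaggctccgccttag

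In the Trim63 window a half-site on the minus strand starts 200 bases before the gene's start, and a FoxO site on the same strand follows it with no base between. Of all 32851 windows in the table, 16.1% held a half-site, 3.17% a FoxO site and 13.0% an E-box. The adjoining arrangement, a search set after this window had been seen, was in 1 of the 32851 windows, that of Trim63. The full response element, 2 half-sites facing each other with 3 bases between, was in 3 of all windows and in none of the members' windows. With at most 1 mismatch, also searched after the window was seen, it was in 46 windows (0.14%), including that of Trim63, where it spans the half-site. Trim54 had a half-site 222 bases before its start and no FoxO site, and the Cblb window held neither. Half-sites were in 4 of the 10 member windows, the others being 1 of the 2 windows of Nedd4 and 1 of the 2 windows of Fbxo40, and an E-box was in 5 of the 10. A match is a description of letters in this window and not a bound site.

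Among the F-box genes, Fbxo32 stood apart in its values. Fbxo32 (ENSMUSG00000022358) encodes atrogin-1, the substrate receptor that targets MyoD and the translation factor eIF3f. It had 1763 and 2970 counts with vehicle and 5320 and 12179 with dexamethasone, or 94.6 and 78.3 against 177 and 130 scaled CPM (86.4 ± 11.5 against 154 ± 33.3, SD, n = 2 each). Both treated libraries were above both vehicle libraries, with replicate 1 the higher of each pair. The log2 fold change was 0.83 (SE 0.208, 95% interval 0.28 to 1.38, edgeR adjusted p = 0.449), and 3.27% of tested genes had a larger one. It was 0.60 without dexamethasone replicate 1 and 1.04 without dexamethasone replicate 2.

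Fbxo32 and Trim63 kept close to a fixed ratio. Fbxo32 reads exceeded Trim63 reads by 1.36 on the log2 scale in each vehicle library and by 1.37 and 1.51 in dexamethasone replicates 1 and 2. The ratio thus differed by 0.08 between groups (exact two-sided permutation p of 0.333), against a spread of 0.0059 (SD, n = 2) with vehicle and 0.097 (SD, n = 2) with dexamethasone. By distance of centred log2 CPM over the 4 libraries, the tested genes most like Fbxo32 were Sesn1, Art1 and Prkar2a (distances of 0.078, 0.081 and 0.088). Those most like Trim63 were Chpt1, Tmem185a and Ssh2 (0.060, 0.061 and 0.069). With 4 libraries and 13285 genes such neighbours are a description only.

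The 4 other F-box genes showed no separation of the treatment groups. Fbxo30 (ENSMUSG00000047648), which encodes MUSA1, a ligase held down by BMP signalling in muscle, had 89.3 and 65.0 scaled CPM with vehicle and 83.3 and 67.3 with dexamethasone. Its log2 fold change was -0.03 (SE 0.216, 95% interval -0.61 to 0.54). Both replicate 1 libraries were above both replicate 2 libraries, whatever the treatment.

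Fbxo31 (ENSMUSG00000052934), a receptor that targets cyclin D1, had 21.0 and 31.9 scaled CPM with vehicle and 25.9 and 31.0 with dexamethasone (log2 fold change 0.10, SE 0.254, 95% interval -0.57 to 0.77). Here the replicate 1 libraries were the lower ones. In GENCODE M21 a protein-coding gene model on the opposite strand, Gm20388, covers all of Fbxo31, and whether counting used strand is not given in the sources used here, so its reads may not be all its own. Fbxo21 (ENSMUSG00000032898), which encodes the FoxO-controlled ligase SMART, had 12.6 and 14.0 scaled CPM with vehicle and 11.3 and 14.2 with dexamethasone (log2 fold change -0.06, SE 0.196, 95% interval -0.57 to 0.46). Fbxo40 (ENSMUSG00000047746), a muscle-restricted receptor that targets the insulin receptor substrate IRS1, was the least abundant member, with 64 and 217 counts with vehicle and 135 and 608 with dexamethasone. Its 3.43 and 5.72 against 4.50 and 6.51 scaled CPM gave a log2 fold change of 0.26 (SE 0.357), and the wide 95% interval of -0.68 to 1.21 includes differences as large as those fitted for Fbxo32 and Cblb.

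All 5 members whose treatment groups overlapped were split completely by replicate number. In Fbxo30 the replicate 1 pair was above the replicate 2 pair, and it was below in Trim55, Fbxo31, Fbxo21 and Fbxo40. This is 1 of 10 members above and 4 of 10 below, against 31.8% and 32.1% of all tested genes, so a split by number was common in these libraries. A gene split by treatment cannot be split by number, so the base for these 5 is the genes whose treatment groups overlap. Of 13285 tested genes, 1993 and 1713 were split by treatment and 4220 and 4270 by number. Most overlapping genes were therefore split by number, as these 5 were. The labels do not say what the number marks. Within 1 number there is 1 library per treatment and no test, but the log2 ratio of dexamethasone to vehicle can be read there. It was 0.91 and 0.74 for Fbxo32, 0.89 and 0.59 for Trim63, 0.44 and 0.26 for Trim54, 1.32 and 1.03 for Cblb, and -0.27 and -0.20 for Nedd4 in numbers 1 and 2. In those 5 genes the shared sign follows from treatment groups that do not overlap, so it is no separate observation. The ratio was farther from 0 in number 1 in all 5. In Trim55, Fbxo30, Fbxo31 and Fbxo21 the sign differed between numbers, and in Fbxo40 it was 0.39 and 0.19.

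Cblb (ENSMUSG00000022637) had the largest difference of the 10. It encodes Cbl-b, which ubiquitinates signalling proteins and targets IRS1 in unloaded muscle. It had 8192 and 15561 counts with vehicle and 32869 and 77960 with dexamethasone, or 439 and 410 against 1097 and 835 scaled CPM (425 ± 20.8 against 966 ± 185, SD, n = 2 each). The vehicle libraries lay close together and the treated libraries were about a doubling above them. The fitted log2 fold change was 1.18 (SE 0.186, 95% interval 0.69 to 1.68), with an edgeR adjusted p = 0.201, and 1.73% of tested genes had a larger one. Leaving out single libraries gave 0.98 to 1.37. In DESeq2's Wald test the adjusted p = 5.99e-05, and in edgeR's likelihood ratio test the adjusted p = 0.000161, so the tools disagreed on whether Cblb passed.

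Nedd4 (ENSMUSG00000032216), the HECT ligase whose known targets include Notch1, had the highest scaled CPM of any member with vehicle. Its levels were 962 and 827 scaled CPM with vehicle and 800 and 718 with dexamethasone, from 17926 to 67033 counts per library. The treated libraries were both lower, though dexamethasone replicate 1 was close to vehicle replicate 2. The log2 fold change was -0.24 (SE 0.154, 95% interval -0.65 to 0.17, edgeR adjusted p = 1.00), and it ran from -0.33 without vehicle replicate 2 to -0.12 without vehicle replicate 1.

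**Figure D3:**
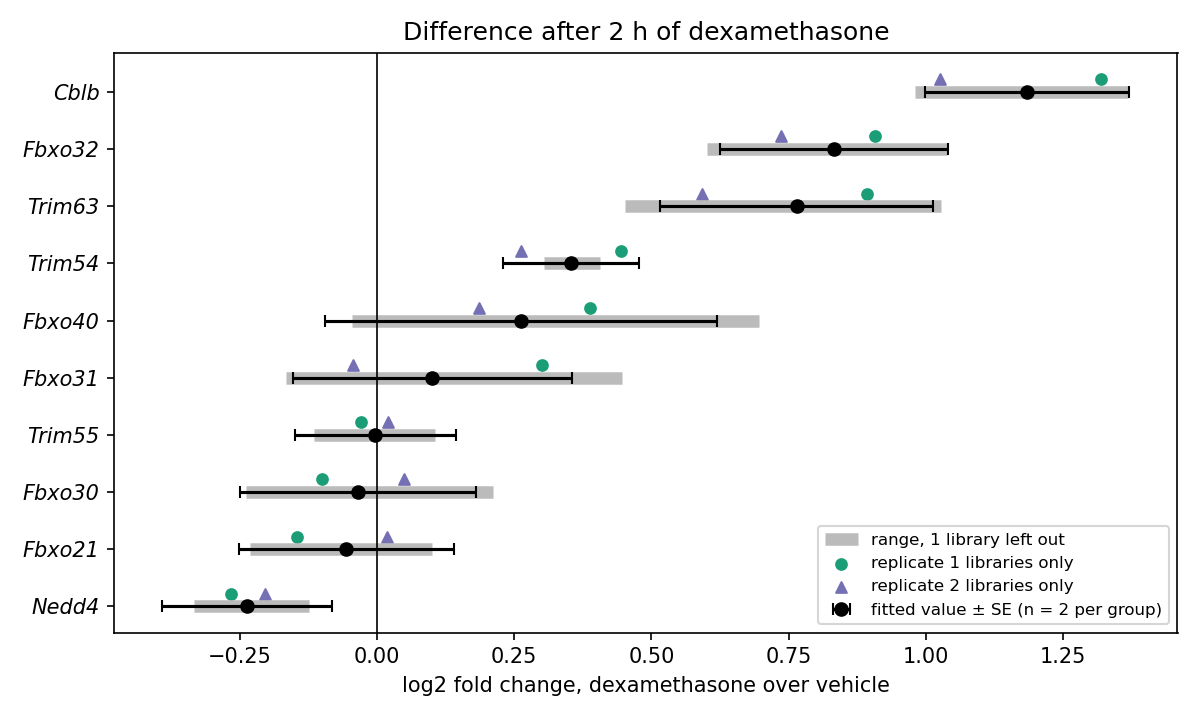
Log2 fold change of dexamethasone over vehicle for the 10 genes: black points with SE bars are fitted values, grey bars the range when 1 library is left out, and coloured points the ratio within replicate number 1 (circles) or 2 (triangles). Cblb, Fbxo32, Trim63 and Trim54 stay right of 0 and Nedd4 left of 0 under each, while the grey bars of the other 5 genes cross 0.

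Levels of different genes were compared per length, in scaled CPM per kb of exon (GENCODE M21 lengths). Trim55 ranked first at 109 to 127 over the 4 libraries, followed by Nedd4 at 65.4 to 87.6 and Trim54 at 42.4 to 57.8. With vehicle, Cblb (42.0 and 39.1) lay just under Trim54 (42.4 and 44.8), and with dexamethasone at 105 and 79.7 it was above Nedd4 (72.9 and 65.4). With vehicle, Fbxo30, Fbxo32 and Trim63 overlapped across libraries, at 12.5 to 17.2, 11.2 to 13.6 and 10.7 to 13.0. Within each vehicle library, however, the order was Fbxo30, Fbxo32, Trim63. With dexamethasone Fbxo32 (25.4 and 18.7) was above Fbxo30 (16.0 and 13.0). Trim63 (24.1 and 16.1) overlapped with Fbxo32 across libraries but lay between Fbxo32 and Fbxo30 within each library. Fbxo31, Fbxo21 and Fbxo40 came last at 3.83 to 5.82, 2.05 to 2.56 and 0.622 to 1.18. Whether introns were counted is not given in the sources used here. Per kb of whole gene the order of the vehicle means began with Nedd4, Trim55, Fbxo30 and Trim54. Cblb, Trim63 and Fbxo32 followed, and their vehicle libraries overlapped at 2.32 to 2.49, 2.10 to 2.55 and 2.00 to 2.42. Within each vehicle library Fbxo32 was the lowest of them, while Cblb and Trim63 changed places. Fbxo31, Fbxo21 and Fbxo40 came last on both scales.

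The rest of the pathway was read from lists chosen by function. For each list the base is all tested genes, of which 15.0% lay wholly above vehicle and 12.9% wholly below. At an unadjusted p under 0.05 in edgeR's quasi-likelihood test, 4.09% were higher and 1.69% lower. After adjustment 0.0376% were called higher and 0% lower. Of 20 other ligases named in muscle biology, 19 were tested, and 0 passed in edgeR over all genes. Before adjustment 1 was higher at a p under 0.05 and 0 were lower. Their median log2 fold change was 0.02, with 3 wholly above and 2 wholly below. Siah1a, a RING ligase, had the lowest p of these, at 116 and 119 scaled CPM with vehicle and 155 and 151 with dexamethasone (log2 fold change 0.38, SE 0.114, edgeR adjusted p = 0.616). Smurf2, a HECT ligase of TGF-beta signalling, was at -0.23 (SE 0.115), Asb2 at 0.29 (SE 0.165) and Trim72, the membrane repair protein MG53, at 0.20 (SE 0.116).

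Of 17 genes for ubiquitin, E1 and E2 enzymes and the SCF core, 16 were tested, and 0 passed over all genes in edgeR (before adjustment 2 were higher at a p under 0.05 and 0 lower). The 2 were the E2 genes Ube2g2 and Ube2j1, both known for degradation at the endoplasmic reticulum. Ube2g2 had 77.1 and 73.4 scaled CPM with vehicle and 130 and 122 with dexamethasone (log2 fold change 0.75, SE 0.120, edgeR adjusted p = 0.201). Ube2j1 had 46.7 and 43.8 against 75.5 and 63.0 (0.61, SE 0.151, edgeR adjusted p = 0.438). Ube2d1 was at -0.30 (SE 0.121) and Ube2b, an E2 long studied in atrophying muscle, at 0.30 (SE 0.155). The subunits that F-box proteins need were near 0, at 0.02 (SE 0.180) for Cul1, 0.11 (SE 0.196) for Skp1 and 0.04 (SE 0.161) for Rbx1. The 4 deubiquitinase genes had a median of 0.03, with 0 passing in edgeR, before or after adjustment, and ran from -0.12 (Cyld, SE 0.316) to 0.26 (Usp1, SE 0.226).

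**Figure D4:**
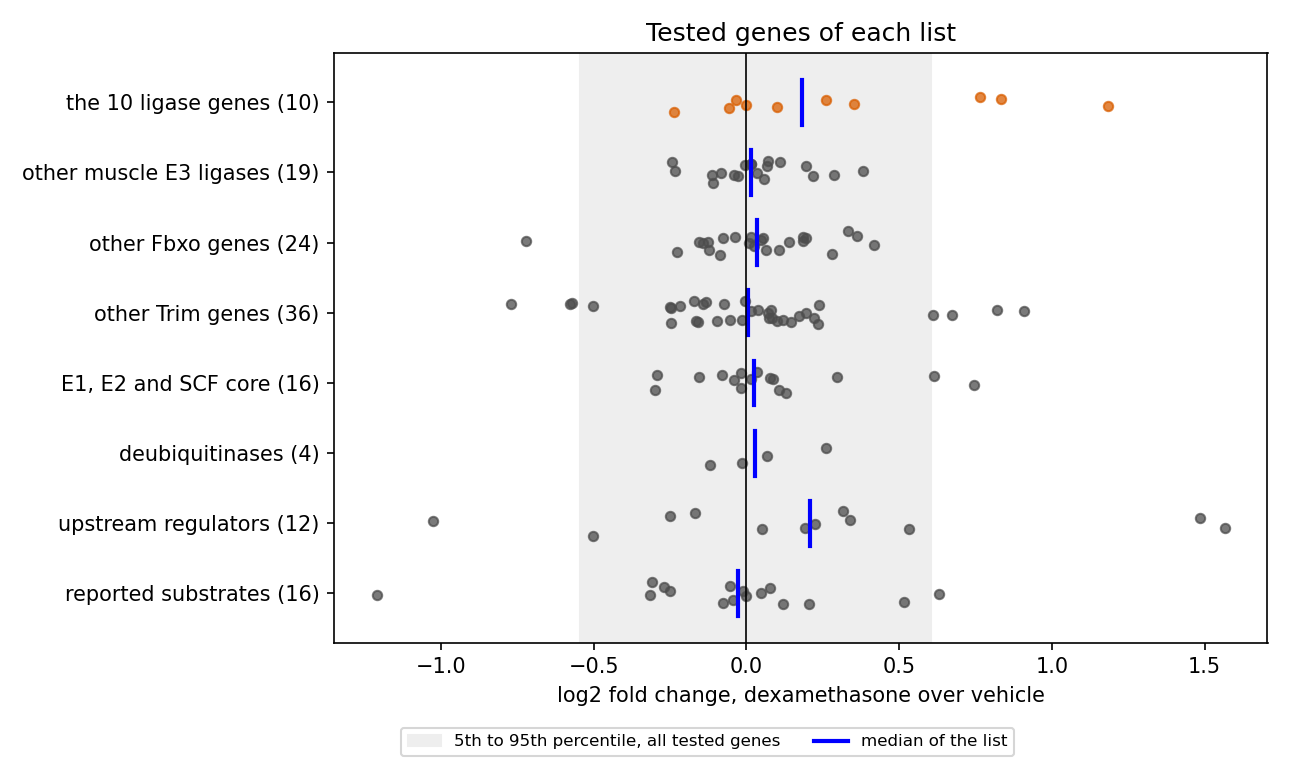
Log2 fold change of dexamethasone over vehicle for each tested gene of 8 lists (number tested in brackets), with the list median in blue and the 5th to 95th percentile of all tested genes shaded (-0.54 to 0.60). Of the 10 ligase genes 3 lie beyond the shaded range, all on the higher side, and 0 of the 19 other muscle ligases do.

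Of 13 upstream regulators, 12 were tested and 0 passed over all genes in edgeR, while before adjustment 2 were higher at a p under 0.05 and 1 was lower. Foxo3, a FoxO factor that drives atrogin-1 transcription, had 202 and 244 scaled CPM with vehicle and 658 and 592 with dexamethasone (log2 fold change 1.49, SE 0.162, edgeR adjusted p = 0.123). Foxo1 was at 460 and 645 against 667 and 732 (0.34, SE 0.208). The other FoxO genes were Foxo6, wholly below vehicle at 35.8 and 46.9 against 27.2 and 31.3 (-0.50, SE 0.194, edgeR adjusted p = 0.884), and Foxo4, whose groups overlapped (0.05, SE 0.206). Of the 12 regulators 5 lay wholly above vehicle and 4 wholly below, against 15.0% and 12.9% of all tested genes. Klf15, a glucocorticoid-responsive zinc finger factor, was at 5.47 and 8.14 against 18.7 and 21.9 (1.57, SE 0.257, edgeR adjusted p = 0.209). Nr3c1, the receptor gene, was at -1.03 (SE 0.251, edgeR adjusted p = 0.430) and Cebpb at 0.53 (SE 0.203).

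Of 16 genes whose products are reported substrates of the members, all were tested and 0 passed in edgeR over all genes, while before adjustment 1 was lower at a p under 0.05 and 0 were higher. That gene was Irs1, a substrate of both Cbl-b and Fbxo40, with 315 and 236 scaled CPM with vehicle and 127 and 111 with dexamethasone (log2 fold change -1.21, SE 0.193, edgeR adjusted p = 0.201). Its treated libraries were both far below the vehicle libraries, the opposite of Cblb. Both are RNA levels, whereas a ligase acts on the substrate protein, which was not measured here. Notch1 was at -0.31 (SE 0.164), Mybpc1 at 0.63 (SE 0.393), Myod1 at -0.27 (SE 0.189) and Eif3f at 0.20 (SE 0.260). Sarcomere substrates such as Myh4 and Ckm had SEs of 1.20 and 1.25 on the log2 scale, as they differed by replicate number.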

How the data were processed

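Chromatin RNA was measured in 4 libraries, 2 per treatment, grouped by sample title, and the table's Control and DEX columns were taken as the vehicle and dexamethasone libraries of the same number. The authors deposited raw read counts per gene in 1 table. The submitters' processing notes name TopHat2 2.0.13, SAMtools 1.1, HTSeq 0.6.1, DESeq2 1.18.1 and the build mm9. The annotation, and whether introns or strand were counted, are not given in the sources used here. Per the labels' protocols a stranded total RNA kit and a stranded mRNA kit are both named.

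Repeats of a gene with the same counts (51 rows) were dropped, leaving 23282 features. Genes passing filterByExpr (minimum count 10, minimum total 15) were scaled by TMM and fitted on treatment alone (edgeR 4.0.16, R 4.3.3; two-sided quasi-likelihood test), with Benjamini-Hochberg adjustment over all 13285 genes. Log2 ratios within a replicate number have a prior count of 2 added. The procedure was tested on simulated data. Alternatives used DESeq2 1.42.0 and limma 3.58.1, other scalings, filters and thresholds, thinned libraries, a replicate block and leaving out each library. Lengths came from GENCODE M21 (GRCm38) by Ensembl identifier.

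The members and lists were chosen with earlier results of these data known. Genes named beside the members are, per list, the up to 4 with the lowest unadjusted p and a few regulators and substrates fixed with the lists; Foxo4, Foxo6, Myh4, Ckm, Cul1, Skp1 and Rbx1 were added after their values were seen.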

Additional observations from a re-analysis of the deposited data

How the results depend on the processing

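Of 140 refits of single members, 121 kept the direction and side of the threshold, 7 passed it and 12 reversed, all 12 in members whose groups overlapped. Trim55 became 0.0114 with no filter beyond 1 count and 0.0053 with thinned libraries, and the cause was not tested. With single libraries left out, values ran from -0.11 to 0.10 for Trim55, -0.24 to 0.21 for Fbxo30, -0.17 to 0.45 for Fbxo31, -0.23 to 0.10 for Fbxo21 and -0.046 to 0.70 for Fbxo40. Members wholly above vehicle numbered 4 under each scaling, filter and thinning. With a library left out they numbered 4 to 7 (7 without dexamethasone replicate 1), where fewer libraries have to separate. No share of all tested genes with that order is given for those refits. The 15.0% found with 2 against 2 libraries is not their base. Calls over all genes numbered 5, against 23 with no filter beyond 1 count, 289 with DESeq2's Wald test, 288 with the likelihood ratio test and 0 with limma-voom (540 up and 231 down before adjustment, at a p under 0.05). They ran from 4 (without vehicle replicate 1) to 193 (without vehicle replicate 2), with 24 without dexamethasone replicate 1 and 28 without dexamethasone replicate 2; there the lone library is assumed to vary like the other group.

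The labels do not say that a replicate number pairs libraries, and 2 pairs are too few to show it (r = 0.734 across 13285 genes between the groups' replicate differences). With the replicate block, 1681 genes were called, 913 higher and 768 lower. Among the members it called 4 higher and 1 lower: Cblb (1.17, adjusted p = 0.000349), Fbxo32 (0.82, adjusted p = 0.000629), Trim63 (0.73, adjusted p = 0.00292), Trim54 (0.35, adjusted p = 0.0216) and Nedd4 (-0.23, adjusted p = 0.0316). That fit leaves 1 residual degree of freedom. Fbxo40 had 64 counts in the smallest library. With thinned libraries its log2 fold change went from 0.26 to 0.27, and that of Fbxo21 from -0.06 to -0.05. Fbxo31 went from 0.10 to 0.013 and Fbxo30 from -0.03 to -0.09, and the cause was not tested.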

Other observations

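The wider families of the members were also read. Of 31 other Fbxo genes in the table, 24 were tested, and 0 passed in edgeR over all genes or at an unadjusted p under 0.05. Their median log2 fold change was 0.04, and the range was -0.72 to 0.42. Of these genes 5 lay wholly above vehicle and 2 wholly below, against 15.0% and 12.9% of all tested genes. The lowest p values were those of Fbxo10 (0.33, SE 0.170), Fbxo17 (-0.72, SE 0.394), Fbxo34 (0.20, SE 0.121) and Fbxo38 (0.19, SE 0.115). Of 64 other Trim genes, 36 were tested and 0 passed over all genes, but 3 were higher at an unadjusted p under 0.05 and 0 lower. Over all tested genes 4.09% were higher and 1.69% lower at that threshold. Trim24, a transcriptional coregulator, had 108 and 89.6 scaled CPM with vehicle and 195 and 177 with dexamethasone (log2 fold change 0.91, SE 0.153, edgeR adjusted p = 0.213), a larger value than that of Trim63. Trim26 had 35.2 and 43.9 against 65.2 and 74.6 (0.82, SE 0.173, edgeR adjusted p = 0.332). Trim25, a ligase of antiviral signalling, had 9.71 and 11.8 against 17.0 and 15.9 (0.61, SE 0.182, edgeR adjusted p = 0.606). Trim8 was at -0.58 (SE 0.304), and the list median was 0.01.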
